A study of Microtus ochrogaster with 23 samples.

Results

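Stretches of the genome that are dense in CpGs and almost free of DNA methylation were described in the dentate gyrus (DG) of prairie voles. Windows of 1000 bases were laid along each sequence, and a window was taken when at least 30 of its cytosines had 10 or more reads in all 23 animals and when its pooled methylation level, the methylated reads of all animals over all their reads, was at most 10%. Chromosome X was left out. Of 42608 windows with such a cytosine, 3560 met the rule. Of the 3590 windows that were dense enough, 99.2% were also at or under 10%, and 30 were above it. Since the pooled level chose the windows, their low level is a description and was not tested.

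The study asked how the DG differs between voles that respond differently to a pup. Reduced representation bisulfite sequencing (RRBS) was done on tissue punches of the DG, with 1 library per animal. All animals were adult and WT. The “Attacker” group (n = 6) held sexually naïve males that attacked an unfamiliar pup and were then taken away from it, and the “Parental” group (n = 6) held sexually naïve males that cared for the pup. The “Father” (n = 5) and “Mother” (n = 6) groups held males and females of breeding pairs, tested after their litter was born. “Father” vs “Mother” is thus a comparison of the sexes in pair-bonded animals. In it sex cannot be told apart from having been pregnant and given birth. “Attacker” vs “Parental” compares virgin males by behaviour, and the comparisons of either with “Father” set virgin males against males that had mated and lived with pups. The virgin groups were formed by the animals' own behaviour, not by assignment.

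A CpG is a cytosine followed by a guanine, and in mammals it is the main place where DNA methyltransferases add a methyl group. Most CpGs of the genome are methylated and have become rare, but at CpG islands they are closely packed and mostly unmethylated. Islands cover the start of most widely expressed genes and of many developmental genes, where proteins with a CXXC domain bind unmethylated CpGs and where Polycomb complexes hold developmental genes silent. RRBS cuts DNA with MspI, whose recognition site contains a CpG, so that such regions are read deeply. Bisulfite turns unmethylated cytosines into bases read as T, and it leaves 5-methylcytosine and 5-hydroxymethylcytosine, which is common in brain, alike as C. The level given for a window is therefore the sum of both marks. A punch of the DG holds several cell types, and a few fully methylated cells cannot be told apart from a low level in every cell.

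Each library held between 64896224 and 129376223 calls, a call being 1 read at 1 cytosine, and the median depth of a read cytosine was 19 to 43. The CpG-dense windows took 12.9% of the calls in the median animal. Attacker 6 stood apart from the other libraries. The methylation level over all its calls was 38.7%, against a median of 14.2% over the 23 animals, and 8.80% of its calls fell in the windows, the smallest share of any animal. A rise with the animal number, not even at every step, was shared by all groups. From the first to the last animal the overall level went from 8.34% to 38.7% in “Attacker” and from 10.4% to 20.4% in “Parental” voles. In “Father” and “Mother” voles it went from 10.6% to 21.1% and from 10.6% to 14.5%. Median depth went from 38 to 19, 26 to 22, 43 to 22 and 31 to 23 in the same order. The labels give the number only as a replicate. With Attacker 6 left out of the pooled level, at the same cytosines and with its reads still part of the coverage filter, 3562 windows were at or under the limit, and 2 windows were in only 1 of the sets. A table of DNA methylation gives no expression, so the cell types of the punches could not be checked by their transcripts.

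The windows lay mostly at genes. Of the 3560 windows, 2636 were on chromosomes or linkage groups of the MicOch1.0 assembly and 924 on unplaced scaffolds, for which no gene was given. The gene table of this assembly gives the start and end of a gene but not its strand or exons, so either end of a gene counts here as a gene end. A gene end lay in or within 1000 bases of 2239 windows (84.9% of 2636), compared with 8721 of 13263 less dense windows that had at least 5 counted cytosines (65.8%). Among the dense windows above the 10% limit it was 14 of 21 (66.7%). The windows overlapped a gene in 2374 cases (90.1%), against 74.5% of the less dense windows, and 157 (5.96%) lay between genes and more than 1000 bases from any gene end, against 17.8% of the less dense windows. Ends of 2 or more genes were within 1000 bases of 339 windows (12.9%). In all, 2414 of 14790 protein-coding or lncRNA genes had an end within 1000 bases of a window.

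The level was lowest in windows that held a gene end. In the 1629 windows that contained a gene end the median level was 0.531%, and 4.17% of them were over 2%. In the 610 windows with the nearest end 1 to 1000 bases away these values were 0.581% and 8.36%. At 1001 to 5000 bases (175 windows) the median was 0.685% and 22.9% were over 2%. Farther out the share over 2% was lower again, with 14.6% of 157 windows at 5001 to 50000 bases and 9.23% of 65 windows beyond 50000 bases. Neighbouring windows share fragments and genes, so these are descriptions with no test.

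Most windows stood alone. Adjacent windows formed 3319 runs, of which 3088 were 1 window, 221 were 2 windows and 10 were 3 windows. The 7 runs of 3 windows with a known gene were at Zic5, Smad7, Mn1, Vgf, Igf1r, Dlx2 and Igf2bp1, a set chosen by run length. Igf1r, the receptor of insulin-like growth factor 1, and Smad7, an inhibitor of TGF-beta signaling, were low in all 3 windows. At Igf1r (chr22:25137000-25139999) the 3 levels were 0.493%, 0.367% and 0.443%. At Smad7 (chr18:59559000-59561999) they were 0.505%, 0.442% and 0.414%. Vgf, which encodes a neurotrophin-induced secreted protein, had 0.605%, 1.55% and 0.653% (chr2:20478000-20480999). The runs at Zic5 and Dlx2 were less even. At Zic5, a zinc finger factor of neural development (chr17:34134000-34136999), the levels were 1.15%, 0.819% and 3.47%. The run at Dlx2, a homeobox factor of forebrain interneurons (chr4:81302000-81304999), had the highest levels, with 7.04%, 5.96% and 1.16%. Over the whole Dlx2 run the animals ranged from 2.45% to 9.98%. Chromosome 7 held the most windows (288, or 20.9 per 100 genes). The most windows in 1 megabase were 19, at LG1:2000000-2999999 and again at LG1:3000000-3999999.

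The levels were far below the limit of the rule. The median pooled level was 0.554%, the 25th and 75th percentiles were 0.451% and 0.772%, and the extremes were 0.194% and 9.97%. A level of at most 1% was found in 2946 windows (82.8%). Between 1% and 2% there were 363 windows (10.2%), between 2% and 5% there were 200 (5.62%), and 51 (1.43%) were over 5%. The 251 windows over 2% held 7.30% of the calls but 31.4% of the methylated calls. For comparison, the 18442 less dense tested windows had a median of 0.838%, and 86.3% of them were also at or under 10%. The dense windows above the limit had a median of 14%.

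**Figure D1:**
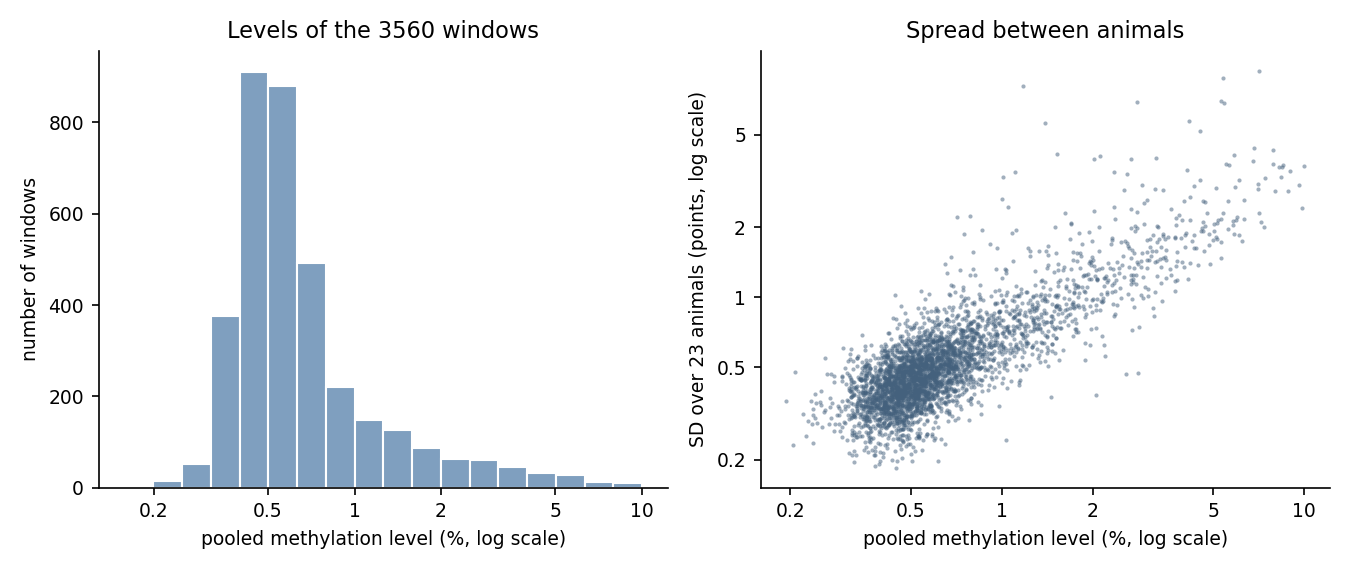
The left panel shows the number of CpG-dense windows (y axis) by pooled methylation level in % (x axis, log scale), and the right panel shows for each window the SD of its level over the 23 animals in percentage points against its level (both axes log). Most of the 3560 windows sit between 0.3% and 1%, around the median of 0.554%, and a thin tail reaches the 10% limit. The SD is larger in windows with a higher level.

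The limit fell in a sparse range of levels. Just inside it were a window at Runx1, a hematopoietic transcription factor (chr2:71513000-71513999, 9.97%), a window on an unplaced scaffold (9.83%) and a window at Fam229a (chr10:55155000-55155999, 9.62%). Just outside were windows at Wdr20 (chr1:46227000-46227999, 10.2%), at Rab2a, a small GTPase of the early secretory pathway (LG5:58685000-58685999, 10.2%), and on an unplaced scaffold (10.3%). The animals crossed the limit in both directions. The window at Runx1 ranged from 3.24% to 17.9% between animals, and that at Wdr20 from 4.56% to 40.6%, the latter in Attacker 6.

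The same windows were also described cytosine by cytosine, and the rule on the pooled level keeps these levels low on average. A window had at least 30 counted cytosines (median 38), and the windows together held 148527 of the 433010 counted cytosines (34.3%). Of these cytosines, 49343 (33.2%) had no methylated call in any animal and 112217 (75.6%) had a pooled level of at most 1%. A pooled level over 20% was found at 210 cytosines (0.141%), in 105 windows, and a level over 50% at 8. The 210 cytosines held 5.69% of the methylated calls of the windows. In 40147 CpGs the cytosines of both strands were counted. Their levels were within 5 percentage points of each other in 39908 CpGs (99.4%) and differed by more than 20 points in 2.

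The windows with the most counted cytosines were at Ppm1e, Ctps1, Sp8, Ptpn13 and Crybg1. The window with the most, 86 bases from an end of Ppm1e, a protein phosphatase gene (chr7:63581000-63581999), had a level of 0.587%. The next, at an end of Ctps1, a CTP synthase (chr10:62438000-62438999), had 0.360%. In the next, in the gene of the zinc finger factor Sp8 (chr1:53422000-53422999), the level was 1.33%. At Ptpn13, a tyrosine phosphatase (LG1:53468000-53468999) it was 0.446%. The window in Crybg1 (LG9:29728000-29728999) was 57659 bases from an end of the gene and had 1.17%. In these 5 windows no animal exceeded 3.07%, the value of Attacker 6 at Sp8.

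Lists of genes were then examined for windows at their ends. A gene was counted when a window contained one of its ends or lay within 1000 bases of it, and only genes on chromosomes or linkage groups outside X could be placed. Of the 12 placed genes that mark dentate granule neurons, 2 had such a window. These were Rfx3, a ciliogenic transcription factor (chr8:57193000-57193999, 0.526%, animals from 0.124% to 1.07%), and Bcl11b, a zinc finger factor of neurons (chr1:43384000-43384999, 0.777%, from 0% to 2.29%). Of the 29 placed markers of other brain cell types, 6 had a window. The window at Olig1, an oligodendrocyte lineage factor (chr2:73011000-73011999), had 0.800%, that at the adhesion protein gene Nectin3 (chr2:57297000-57297999) had 0.731%, and that at Flt1, a VEGF receptor of endothelium (chr2:29143000-29143999), had 0.664%. All 5 of these windows, for granule neurons and for other cell types, were thus under 1% in this bulk tissue. Gad2, the gene of a GABA-synthesizing enzyme of interneurons (chr16:15405000-15405999), was picked out after its value was seen. Its window had 2.85%, and the animals ranged from 1.81% to 4.52%.

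Developmental homeobox genes had the highest median level of the lists. Of 31 placed genes 10 had a window, and the median of their 13 windows was 1.61%, against 0.554% over all 3560. Their lowest window, at En1, had 0.881%, which is above the 75th percentile of all windows. Nkx6-1, a factor of neural tube patterning (LG1:51795000-51795999), had 1.30%, and Hoxd9, a factor of the axial body plan (chr4:84206000-84206999), had 1.71%. Dlx2 was highest, with 5.96% in the window nearest to it. Animals at Dlx2 ranged from 2.57% to 11%. The Hoxd cluster gave 5 windows with levels from 1.27% at Hoxd13 to 2.67% at Hoxd3. At Hoxd3 (chr4:84254000-84254999) the animals ranged from 0% to 11.5%, the latter in Parental 1.

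The genes of the DNA methylation machinery had low levels at their own ends. Of 18 placed genes 6 had a window, with a median of 0.501% and none over 2%. Tdg, a glycosylase of active demethylation (chr24:34139000-34139999), had 0.511%, Uhrf2, which binds hemimethylated DNA (chr8:59177000-59177999), had 0.587%, and Cxxc5, a CXXC protein (chr18:24359000-24359999), had 0.578%. In Wnt signaling, the pathway that controls growth and patterning through beta-catenin, 12 of 40 placed genes had a window, and the median of 13 windows was 0.541%. The window at the effector Tcf7l2 (chr8:83079000-83079999) had 0.727%, that at the kinase Gsk3b (chr2:48982000-48982999) had 0.501%, and that at the receptor Fzd10 (chr2:18708000-18708999) had 0.762%. Wnt11, the gene of a secreted ligand (chr22:1541000-1541999), was the exception in its list with 3.48% and a range of 1.5% to 6.42%. It was picked out after its value was seen.

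Activity-regulated genes, which neurons switch on when they fire, had a median of 0.514% over 9 windows, and 8 of 16 placed genes had a window. Jun (chr10:31684000-31684999) had 0.508%, Egr3 (chr17:16011000-16011999) had 0.667% and Nr4a3 (LG5:42999000-42999999) had 0.514%, and all 3 encode transcription factors. Arc, the gene of a synaptic capsid-like protein (chr15:29339000-29339999), had 2.80% and ranged from 0.567% to 9.50%, in Mother 3, and was also picked out after its value was seen. For social neuropeptides and steroid hormones only 2 of 19 placed genes had a window, the progesterone receptor gene Pgr (chr5:4267000-4267999, 0.789%) and the kisspeptin receptor gene Kiss1r (LG1:3878000-3878999, 1.1%). Of the 19, 7 had any tested window at an end, so that most of this list was outside what could be compared.

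Housekeeping genes had the lowest median of the lists, 0.461% over 10 windows at 9 of 22 placed genes. The window at the clathrin heavy chain gene Cltc (chr7:62946000-62946999) had 0.433%, and that at Reep5 (chr18:22859000-22859999) had 0.479%. The exception was Pgam1, an enzyme of glycolysis, whose window is described with the variable windows. Of 15 placed imprinted genes 3 had a window. These were Igf2r, the receptor that removes insulin-like growth factor 2 (LG9:10097000-10097999, 0.762%), Kcnq1, a potassium channel (chr8:35667000-35667999, 1.87%), and Nnat (LG8:20657000-20657999, 1.01%). The lists were chosen with earlier results of these data known and gave no test of their own.

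**Figure D2:**
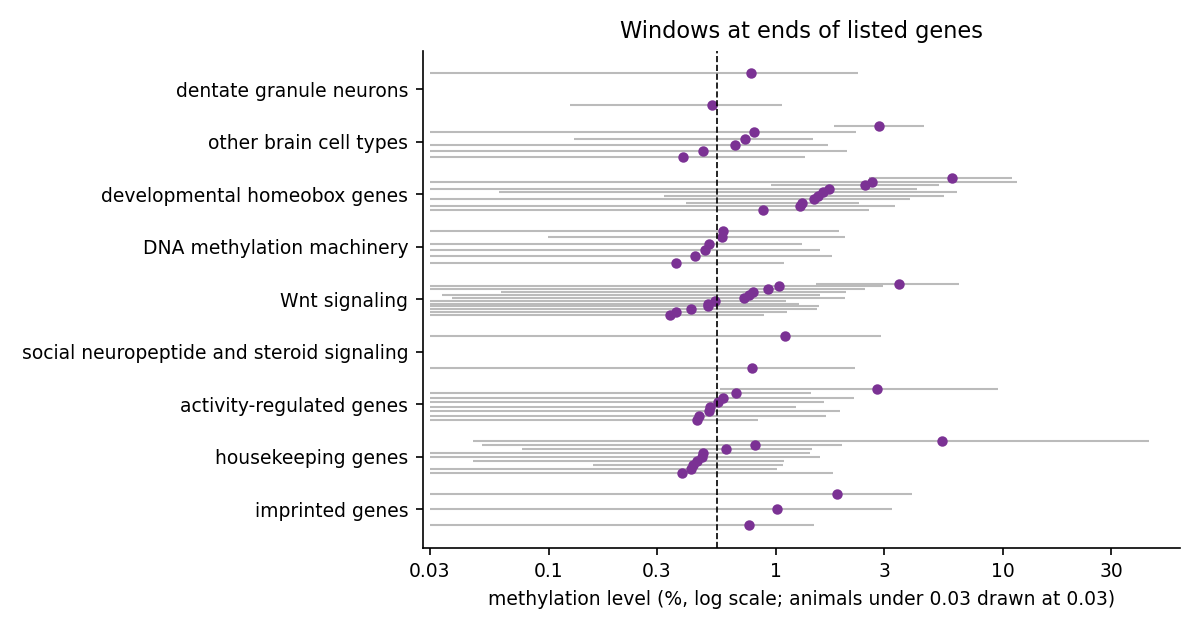
Each point is the pooled methylation level in % (x axis, log scale) of the window at a listed gene, the grey line spans the lowest to the highest of the 23 animals, rows are the gene lists, and the vertical line marks the median of all 3560 windows. Points of the homeobox list all lie to the right of that line, from 0.881% to 5.96%, and the longest grey line is that of Pgam1 among the housekeeping genes, which reaches 44.0%.

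The mean level of counted cytosines rose with the distance from the window edge. Inside the windows the mean level of a cytosine was 0.828% ± 0.0561 (SD) for the 6 “Attacker” animals and 0.806% ± 0.0186 for the 6 “Parental” animals. It was 0.795% ± 0.0346 for the 5 “Father” animals and 0.807% ± 0.0303 for the 6 “Mother” animals. Among the 9368 counted cytosines 1 to 100 bases outside, the group means were 1.18% to 1.27%. At 251 to 500 bases (7463 cytosines) they were 2.41% to 2.54%, at 1001 to 2000 bases (4932) 4.87% to 5.08%, and at 5001 to 20000 bases (23013) 7.11% to 7.44%. The share of highly methylated cytosines rose as well. Cytosines over 50% made up 0.00539% of those inside, 0.107% of those at 1 to 100 bases, 0.868% of those at 501 to 1000 bases and 4.18% of those at 5001 to 20000 bases. The level of the median cytosine was highest at 2001 to 5000 bases, with 1.61%, and was 1.01% at 5001 to 20000 bases. All cytosines here had 10 reads in every animal, a filter that selects CpG-rich fragments, so the level of the wider genome is not given by this profile.

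**Figure D3:**
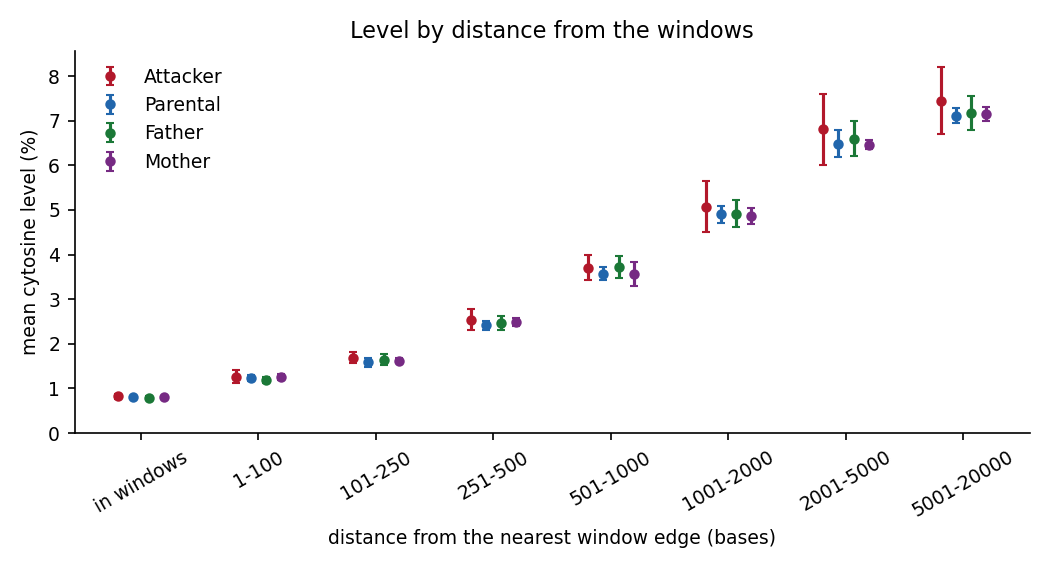
The mean level of counted cytosines in % (y axis) is shown by distance in bases from the nearest edge of a CpG-dense window (x axis, in classes), with 1 point per group and bars of 1 SD over its animals. All 4 groups rise from about 0.8% inside the windows to between 7.11% and 7.44% at 5001 to 20000 bases, with overlapping bars.

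Single windows differed between animals by more than binomial counting of independent calls gives. A window had 429 to 33209 calls in an animal (median 2760), of which a median of 16 were methylated, and 13% of the values were 0. At the median number of calls, a value of 0 allows a level of up to 0.109% (3 calls). The SD of a window's level over the 23 animals had a median of 0.483 percentage points, or 3.25 times the SD that binomial counting gives. It had a median of 1.14 points in the less dense tested windows and 6.18 points in the dense windows above the limit. The SD was larger at higher levels, and the rule parts the last set from the others by level. The less dense windows also had a higher median level (0.838%) and fewer cytosines. These contrasts in SD are therefore not a result about the windows. Reads carry no molecular identifiers, and a read enters at each CpG it crosses, so calls are not independent. The binomial SD and the limit of 0.109% treat them as independent and can be too low. The ratio of 3.25 therefore cannot tell a spread between animals from such repeated counting. In 3273 windows (91.9%) every animal was at or under 5%. At least 1 animal exceeded 10% in 78 windows and 20% in 10. Without Attacker 6 these were 69 and 6.

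The windows with the largest SD were at Eapp, Pgam1, Arpc5l and Anapc2, and on LG8 near Polr3k. The rule did not use the spread between animals, but these windows were chosen by it and are described without a test. In the window at an end of Eapp, a regulator of E2F factors (chr1:58648000-58648999, 7.07%), the SD was 9.41 points. High values were seen in 3 groups, with 28% in Attacker 6, 25.5% in Father 3, 21.1% in Mother 1 and 28.1% in Mother 3, and the highest “Parental” value was 10.2%. In 6 animals the level was at or under 1%, and the median of the 23 was 2.83%. The window was thus nearly unmethylated in some voles of every group and over 9% in others.

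At Pgam1 (chr8:69399000-69399999, 5.40%) Attacker 6 had 44.0%. The next animal, Attacker 5, had 10.6%, and the median was 4.08%. A window at the edge of LG8 (LG8:1000-1999, 1.18%), 35209 bases from the RNA polymerase III subunit gene Polr3k, had 39.4% in Attacker 6, from 993 calls, and at most 1.60% in the other 22 animals. At Anapc2, a subunit of the anaphase-promoting complex, where an end of Ssna1 also lies (chr4:52125000-52125999, 2.80%), Attacker 6 had 33.0% and Attacker 5 had 11.8%. Attacker 6 was therefore highest in 3 of the 5 most variable windows. At Arpc5l, a subunit gene of the actin-nucleating Arp2/3 complex (chr4:39345000-39345999, 5.31%), the high animals came from all groups. Parental 2 had 22%, Attacker 6 had 18.9%, Attacker 5 had 18%, Parental 6 had 14%, Mother 5 and Mother 6 had 11.3% and 11.2%, and Father 5 had 8.74%, while the median was 1.35%.

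**Figure D4:**
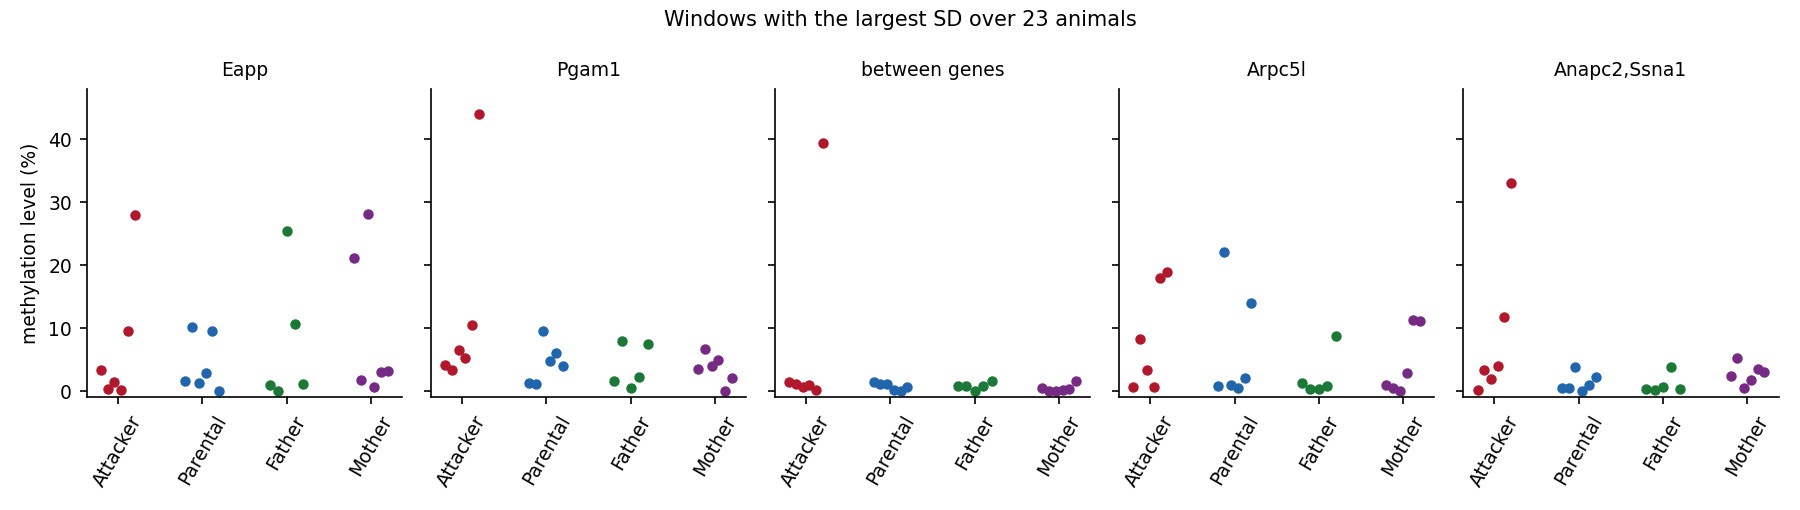
Methylation level in % (y axis) of each animal (points, by group on the x axis) in the 5 windows with the largest SD over the 23 animals. In the Pgam1 window, the window between genes and the Anapc2 window a single point, Attacker 6, stands at 44.0%, 39.4% and 33.0%, whereas the Eapp and Arpc5l windows have high points in several groups.

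In 4 windows 1 animal exceeded 10% while all others stayed at or under 2%, a criterion set after the data were seen. Besides the window on LG8 these were at Sap30l, a part of a histone deacetylase complex (chr7:40980000-40980999, 10.9% in Attacker 5), at Eif3h, a subunit of a translation initiation factor (LG3:2496000-2496999, 16.1% in Attacker 6), and at Txndc2 and Vapa (LG4:23979000-23979999, 27.4% in Attacker 6). Attacker 6 held 3 of the 4. It was also the highest of the 23 animals in 298 windows (8.37%) and in 31 of the 251 windows over 2% (12.4%). Its median number of calls per window was the lowest of all animals, 1526. The part of its depth and of its overall level of 38.7% in these values was not tested.

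No difference between groups in the pooled level per animal passed the test. The 6 “Attacker” animals had 0.895% ± 0.0808 (SD, range 0.836% to 1.04%, median 0.858%), and the 6 “Parental” animals had 0.855% ± 0.0294 (range 0.816% to 0.899%, median 0.852%). The 5 “Father” animals had 0.796%, 0.817%, 0.845%, 0.882% and 0.922% (mean 0.852% ± 0.0505), and the 6 “Mother” animals had 0.868% ± 0.0488 (range 0.795% to 0.924%, median 0.884%). All groups overlapped, and the highest animal was Attacker 6. The difference “Attacker” minus “Parental” was 0.0402 points, with a 95% interval from -0.0284 to 0.119 (exact two-sided permutation test, p = 0.320, adjusted p = 0.701). “Attacker” minus “Father” was 0.0429 points (-0.0453 to 0.140, exact permutation p = 0.351, adjusted p = 0.701). “Parental” minus “Father” was 0.00274 points (-0.0572 to 0.0581, exact permutation p = 0.909, adjusted p = 0.909), and “Father” minus “Mother” was -0.0161 points (-0.0865 to 0.0531, exact permutation p = 0.606, adjusted p = 0.808). The smallest p these designs allow is 0.00216 for 6 against 6 and 0.00433 for 6 against 5. P-values were adjusted over the 4 comparisons. Without Attacker 6 the differences of “Attacker” from “Parental” and “Father” were 0.0109 and 0.0136 points. The pooled level was higher in the last than in the first animal of every group. It went from 0.836% to 1.04% in “Attacker” and from 0.816% to 0.899% in “Parental” voles. In “Father” and “Mother” voles it went from 0.796% to 0.922% and from 0.795% to 0.896%. The permutation tests took no account of the animal number.

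The share of windows over 10% in an animal was small and uneven. The 6 “Attacker” animals had 0.342% ± 0.323 (SD) and the 6 “Parental” animals 0.253% ± 0.0906. The 5 “Father” animals had 0.281% ± 0.116 and the 6 “Mother” animals 0.220% ± 0.0783. Attacker 6 had 34 such windows (0.955%), and the other 22 animals had 3 to 15. The exact permutation p-values were 0.716 and 0.879 for “Attacker” against “Parental” and “Father”, 0.710 for “Parental” against “Father” and 0.364 for “Father” against “Mother” (adjusted p = 0.879 in all 4). Without Attacker 6, “Attacker” voles were lower than “Parental” by 0.0337 points and lower than “Father” by 0.0618 points, in place of higher.

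Across the 23 animals the pooled level of the windows moved with that of the less dense tested windows (Pearson r = 0.829, p = 1e-05, the smallest that 100000 permutations can give, adjusted p = 3e-05, Spearman rho = 0.777). It held without the animals farthest from the median, Attacker 6 and Father 5 (r = 0.641, permutation p = 0.00173), and it was positive within “Attacker” (r = 0.961), “Parental” (0.826), “Father” (0.983) and “Mother” voles (0.642). Libraries with more calls had a lower level (r = -0.591, adjusted permutation p = 0.00400, rho = -0.610, and r = -0.535 without Father 1 and Attacker 1), but within “Parental” voles r was -0.0421. With the dense windows above the limit r was 0.601 (adjusted permutation p = 0.00294, rho = 0.608, and 0.608 as r without Father 5 and Father 4), but it was -0.534 within “Mother” voles. These relations were 3 in number, and the measures share a library. For the median level over the windows in place of the pooled level, none of the 3 relations passed the test. For it r was 0.192 with the less dense windows (permutation p = 0.377), -0.0814 with the number of calls (permutation p = 0.712) and 0.134 with the dense windows above the limit (permutation p = 0.543). The pooled level of the windows at or under 1% gave r of 0.665, -0.585 and 0.592 in this order (permutation p = 0.00035, 0.00317 and 0.00321). That of the windows over 2% gave 0.855, -0.543 and 0.587 (permutation p = 2e-05, 0.0135 and 0.00204). The difference between the relations of the pooled and the median level was not tested. No sequencing batch was named in the labels. The overall level tended to be higher at higher animal numbers in every group, and the part of this in the relations was not tested.

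**Figure D5:**
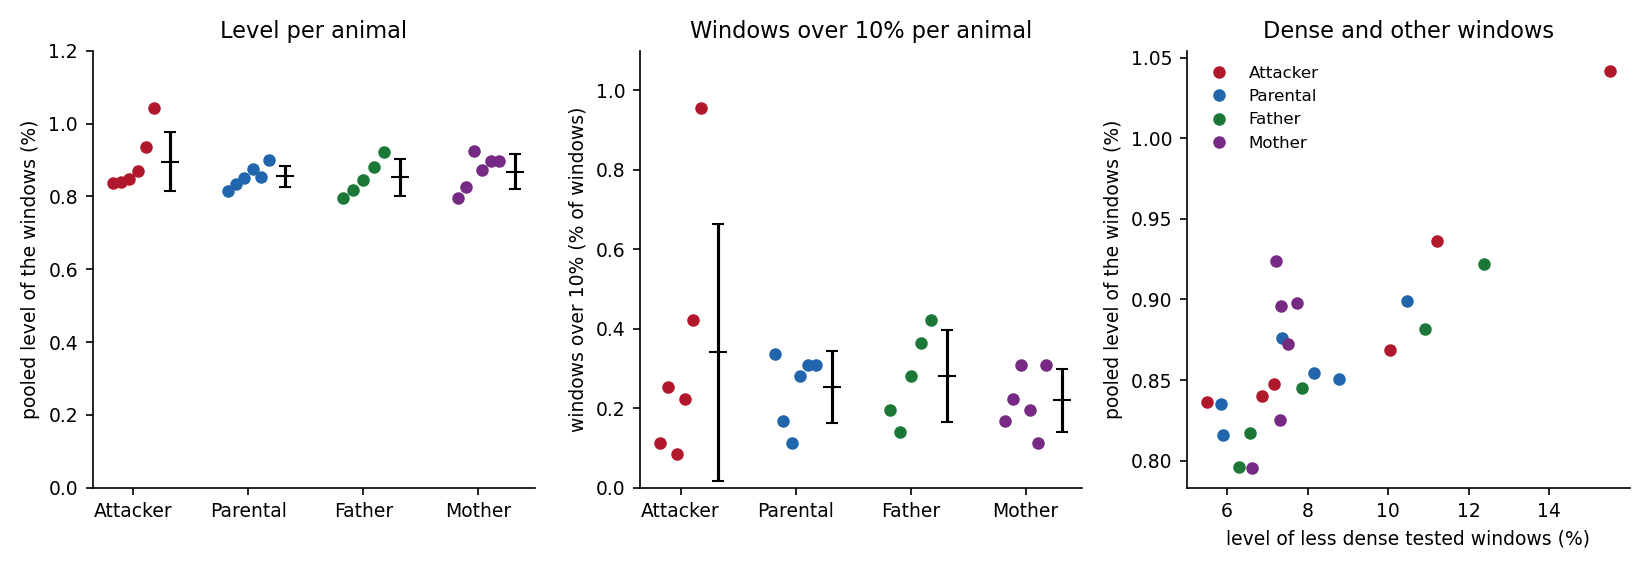
For each animal (points) and group mean with SD (black bars), the left panel gives the pooled methylation level of the CpG-dense windows in %, the middle panel the share of windows over 10% in %, and the right panel plots the pooled level against the level of less dense tested windows in %. Groups overlap in the first panels, and Attacker 6 is the highest point in all of them, at 1.04% and 0.955%.

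The windows were next compared between groups 1 at a time. The test was edgeR's quasi-likelihood test on methylated and unmethylated counts, fitted to all 23 animals and adjusted by Benjamini-Hochberg over all 22032 windows with at least 5 counted cytosines. None of the 3560 CpG-dense windows had an adjusted p under 0.05 when “Attacker” was compared with “Parental” or “Father”, or “Parental” with “Father” (0.0% of all tested windows in each), nor in “Father” vs “Mother” (0.00908% of all tested windows, 2 windows, neither of them a member of the set). An unadjusted p under 0.05 was found in 100 windows for “Attacker” vs “Parental”, 119 for “Attacker” vs “Father”, 97 for “Parental” vs “Father” and 83 for “Father” vs “Mother”. These were 2.81%, 3.34%, 2.72% and 2.33% of them, against 3.55%, 3.79%, 3.57% and 3.78% of all tested windows. With limma on arcsine-transformed levels no CpG-dense window was called either (0.0% of all tested windows in the first 3 comparisons and 0.209% in “Father” vs “Mother”), with 3.57%, 4.07%, 3.15% and 3.12% at an unadjusted p under 0.05, against 5.07%, 5.32%, 4.57% and 4.93% of all tested windows. DESeq2 called 1 in “Father” vs “Mother” (0.29% of all tested windows) and none in the others (0.0%, 0.0% and 0.00908% of all), with 6.85%, 7.89%, 6.1% and 6.77% of the CpG-dense windows at an unadjusted p under 0.05, against 8.3%, 8.92%, 8.33% and 8.6% of all tested windows.

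Group differences were small in points. In the order of the comparisons just given, the median absolute difference was 0.205, 0.217, 0.203 and 0.207 points, and the 95th percentile lay between 0.806 and 0.902 points. Differences over 5 points were seen in 3, 7, 1 and 2 windows, whereas 4.88%, 5.37%, 4.44% and 5.06% of all tested windows exceeded 5 points. The rule holds the pooled level at or under 10% and so leaves little room for such differences. This contrast is therefore not a result about the groups. The window level was higher in the first group in 1811, 1855, 1838 and 1703 of the 3560 windows. The animals of the 2 groups did not overlap in 3, 16, 9 and 13 windows (0.0843%, 0.449%, 0.253% and 0.365%), against 0.182%, 0.359%, 0.363% and 0.572% of all tested windows. The first 3 comparisons share groups with each other, and “Father” vs “Mother” shares its “Father” animals with 2 of them.

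The 3 windows with the smallest unadjusted edgeR p in each comparison are given as values, since none passed the adjustment. Their unadjusted p-values were between 0.000186 and 0.00212. In “Attacker” vs “Parental” the first was a window at an end of Edrf1, a gene linked to erythroid differentiation (chr8:26461000-26461999, 33 cytosines, pooled 0.234%). “Attacker” voles had 0.376% to 1.15% (median 0.796%), “Parental” voles 0% to 0.0526% (median 0%), “Father” voles 0%, 0%, 0.128%, 0% and 0%, and “Mother” voles 0% to 0.560% (median 0%). All 6 “Attacker” animals were above all “Parental” and “Father” animals, but 1 “Mother” was within their range. The means were 0.757% ± 0.266 (SD, n = 6) against 0.0156% ± 0.0244 (SD, n = 6), with an edgeR adjusted p = 1. Against “Father” voles (0.0256% ± 0.0572, SD, n = 5) the edgeR adjusted p was also 1. The values rest on few cytosines. The 84 methylated calls of the 6 “Attacker” animals were on 6 of the 33 cytosines.

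Next in “Attacker” vs “Parental” was a window at Slc30a1, a zinc exporter gene (chr6:78020000-78020999, pooled 0.405%). “Attacker” voles had 0% to 0.211% (median 0.0469%) and “Parental” voles 0.428% to 1.2% (median 0.598%), while “Father” voles had 0.412%, 0.325%, 0.304%, 0% and 1.05% and “Mother” voles 0.126% to 0.778% (median 0.353%). “Attacker” and “Parental” animals did not overlap, and the other groups overlapped with both (edgeR adjusted p = 1). At Otud4, a deubiquitinase gene (chr4:2476000-2476999), “Attacker” voles had 0.703% ± 0.0965 (SD, n = 6) and “Parental” voles 0.202% ± 0.364 (SD, n = 6), with 1 “Parental” animal at 0.936%, above all “Attacker” animals (edgeR adjusted p = 1).

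A window at an end of Anapc7, another subunit gene of the anaphase-promoting complex (chr2:15245000-15245999, 37 cytosines, pooled 0.442%), was the one called by DESeq2. “Father” voles had 0%, 0%, 0%, 0.255% and 0.0392%, “Mother” voles 0.301% to 1.51% (median 0.727%), “Attacker” voles 0.261% to 1.37% (median 0.555%) and “Parental” voles 0% to 0.738% (median 0.270%). All “Mother” and all “Attacker” animals were above all “Father” animals. “Father” was lower than “Mother” by 0.754 points (0.0589% ± 0.111, SD, n = 5, against 0.813% ± 0.490, SD, n = 6), with an edgeR adjusted p = 0.345 and a DESeq2 adjusted p = 0.00427. Over 30 other settings, which leave out an animal or change the test or filter, the adjusted p was between 0.107 and 1. In “Attacker” vs “Father” its edgeR adjusted p was 1. The 8 methylated calls of “Father” animals were on 2 cytosines and the 146 of “Mother” animals on 16.

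In “Parental” vs “Father” the smallest p was that of a window on an unplaced scaffold, with 0.613% ± 0.485 (SD, n = 6) against 0.00594% ± 0.0133 (SD, n = 5), edgeR adjusted p = 1. The same window had 0.703% ± 0.454 (SD, n = 6) in “Attacker” voles (edgeR adjusted p = 1 against “Father”). At Pura, the gene of a single-stranded DNA and RNA binding protein of neurons (chr18:24820000-24820999), “Parental” voles had 0.518% to 8.01% (median 0.694%) and “Father” voles 0%, 0.0373%, 0%, 0.302% and 0.0803% (edgeR adjusted p = 1). The groups did not overlap, and Parental 4 alone had 8.01%. A window 33483 bases from LOC101987887 (chr18:26182000-26182999) had 0.661% ± 0.160 (SD, n = 6) against 0.0637% ± 0.110 (SD, n = 5), with edgeR adjusted p = 1. In “Father” vs “Mother”, Anapc7 was followed by another scaffold window, with 0.126% ± 0.240 (SD, n = 5) against 0.544% ± 0.272 (SD, n = 6) and edgeR adjusted p = 0.664. A window at Tlnrd1 (chr22:13661000-13661999) had 0.0256% ± 0.0572 (SD, n = 5) against 0.710% ± 0.390 (SD, n = 6) and edgeR adjusted p = 0.898. In each of these windows “Father” voles were the lower group of the pair.

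Within the gene lists, at most 1 window of a list had an unadjusted edgeR p under 0.05 in any comparison. None did for granule neuron markers, homeobox genes, Wnt signaling and the social neuropeptide and steroid list, and none of any list had an adjusted p under 0.05.

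Single cytosines were compared with limma on arcsine-transformed levels, adjusted over all 433010 counted cytosines, and a call needed an adjusted p under 0.05 and a difference over 15 points. No cytosine of the windows was called when “Attacker” was compared with “Parental” or “Father”, or “Parental” with “Father” (0.0% of all cytosines in each). In “Father” vs “Mother” 1 of the 148527 cytosines of the windows was called, against 0.0307% of all cytosines. Without the minimum difference 3 were called there, against 0.0374% of all. An unadjusted p under 0.05 together with over 15 points was found in 0.0687%, 0.0848%, 0.0633% and 0.0653% of the cytosines of the windows in the 4 comparisons, against 0.636%, 0.705%, 0.557% and 0.706% of all cytosines. The low level that the rule sets leaves little room for differences over 15 points in these windows. The lower shares are therefore not a result about the groups.

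The called cytosine was at chr10:63881029 in Slc2a1, the gene of the glucose transporter GLUT1, 307 bases from a gene end, in a window of 34 counted cytosines with a pooled level of 1.09% (chr10:63881000-63881999). The 5 “Father” animals had 33.3%, 10.4%, 0%, 21.1% and 17.9%, from 45, 115, 25, 76 and 28 reads. The other 18 animals had 0%, from at least 22 reads each. In the 19 animals at 0%, 0 of 1114 reads were methylated, which allows a level of up to 0.269%. All methylated reads thus came from 4 of the 5 “Father” voles. The mean was 16.5% ± 12.4 (SD, n = 5) against 0% in “Mother” voles (limma adjusted p = 0.0220). The same difference had a limma adjusted p of 0.290 in “Attacker” vs “Father” and 0.165 in “Parental” vs “Father”. The unadjusted limma p was 5.81e-06 and 2.36e-06 there and 6.79e-06 in “Father” vs “Mother”. The adjustment was made within each comparison, so the adjusted values also depend on the other cytosines of that comparison. The call is therefore not stronger evidence against “Mother” than against the virgin males. The cytosine on the other strand was not counted. Within 100 bases, 15 counted cytosines had a median level of 0.294% and a highest level of 9.58%.

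Leaving out 1 animal at a time, the call was lost in 7 of 23 fits. The limma adjusted p was 0.0984 without Father 4, 0.0833 without Father 5, and between 0.0531 and 0.0581 without Mother 1, Mother 2, Mother 3 or Mother 6, and without Father 1 the difference was 12.3 points. Without Father 3 the adjusted p was 4.04e-05, and the cytosine was then also called in “Attacker” vs “Father” (limma adjusted p = 0.000309) and “Parental” vs “Father” (limma adjusted p = 0.000123).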

How the data were processed

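RRBS libraries of the DG of 23 voles were examined, grouped by the behavioral group and sex given for each library. The authors used the RRBS mode of Trim Galore, then Bismark against the MicOch1.0 assembly, and deposited for every CpG cytosine the counts of reads and of methylated reads. These counts are not normalized, and the strands of a CpG are listed apart. How PCR copies were treated is not given in the sources used here, and the conversion control was not analysed here. Reads that fail to convert are counted as methylated.

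Cytosines outside X with at least 10 reads in all 23 animals were summed in windows of 1000 bases. The members, the gene lists and the comparisons were chosen with earlier results of these data known. Windows with 5 or more cytosines (22032) were tested with edgeR 4.0.16, with coefficients for each animal and for each group's log ratio of methylated to unmethylated counts. Single cytosines were tested with limma 3.58.1 on asin(sqrt((X + 0.5)/(N + 1))), X being methylated reads and N reads. Means per animal were compared by exact two-sided permutation tests, and relations by 100000 permutations. DESeq2 1.42.0 was an alternative, as were limma on windows, other minimum reads and cytosines, other limits, windows shifted by 500 bases, the replicate number as a block and each animal left out. The block in the limma fit, Attacker 6 left out of the pooled level and windows high in 1 animal were alternatives chosen after seeing the data. So were the pooled levels of members at most 1% and of members over 2%, and the dense windows of X. The fits were tested on simulated data with large differences, which does not show how small a difference they would find. R 4.3.3 and Python 3.11.15 were used, with scipy 1.17.1, numpy 2.4.6 and pandas 2.3.3.

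Named are the 3 windows with the smallest p in a comparison without calls, the 5 with the most cytosines, the 5 with the largest SD, 3 on each side of the limit, and up to 3 genes per list with the most cytosines. Others are said to be chosen after their values were seen, including the runs of 3 windows. Samples of a group are separate animals. No library was found to be a copy of another. Same-numbered animals of different groups had correlations of their deviations of at most 0.0834, so that the numbers were not taken as pairs. These correlations were taken over windows. They cannot show whether same-numbered animals share a level over the whole library. Sequences were not printed, since no genome was used here.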

Additional observations from a re-analysis of the deposited data

Results flagged for a closer look

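By Dixon's criterion at the 95% level, 1 animal stood apart from its group in 22 of 112 groups examined (19.6%). These were groups of the named windows within the level limit and groups of measures per animal, such as the pooled level. All 22 cases were in windows and none in the measures per animal. The share among the window groups alone was therefore above 19.6%. For normally distributed values chance gives about 1 in 20. Some of these groups had 0% in all animals but the distant 1, and windows were picked for a large spread or difference. The share that chance gives here is therefore not known. Attacker 6 was the distant animal at Eapp (28%), Pgam1 (44.0%), near Polr3k (39.4%), at Anapc2 (33.0%), at Eif3h (16.1%) and at Txndc2 (27.4%). Attacker 5 was the distant animal at Sap30l (10.9%) and at Tlnrd1 (2.62%). At Arpc5l it was Father 5 (8.74%), and at Pura it was Parental 4 (8.01%). Father 4 stood apart at Anapc2 (3.89%), Pura (0.302%), Anapc7 (0.255%) and Tlnrd1 (0.128%), in each case above 4 lower “Father” animals. The remaining cases were small in level. They were Mother 6 near Polr3k (1.60%), Mother 2 and Parental 5 at Otud4 (1.14% and 0.936%), Parental 2 at Tlnrd1 (0.242%), Father 2 near LOC101987887 (0.257%) and on an unplaced scaffold (0.554%), Father 3 at Edrf1 (0.128%), and Father 3 on another scaffold (0.0297%).

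The CpG-dense windows of chromosome X were outside the rule and gave a signal in the “Mother” group. In a window at Rbbp7, a histone-binding protein gene (X:46838000-46838999, 33 cytosines), the 17 males of the other groups had 0% to 2.14% (median 0.509%), and “Mother” voles had 0% to 22% (median 16.5%), with a mean of 13.4% ± 9.34 (SD, n = 6). In a window at Apex2 and Pfkfb1 (X:56187000-56187999, 31 cytosines) the males had 0% to 3.29% (median 0.204%) and “Mother” voles 0.273% to 9.13%, with a mean of 5.42% ± 3.51 (SD, n = 6). As background, islands on the inactive X of females are known to be methylated. Not all “Mother” voles were above the males. Mother 2 had 0% and 0.273% and Mother 1 had 4.36% and 2.46% in the respective windows, while Mothers 3 to 6 were above every male in both.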

How the results depend on the processing

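The number of windows depended on the limits of coverage. It was 7270 with at least 20 cytosines, 1631 with at least 40, 7087 with at least 5 reads and 446 with at least 20 reads in every animal. Level limits of 5% and 20% gave 3509 and 3581 windows, and windows shifted by 500 bases gave 3633. The counts of called windows stayed at 0 in every fit with edgeR or limma. With DESeq2 the count was 1 in “Father” vs “Mother”. For single cytosines in “Father” vs “Mother” it was 3 without a minimum difference and 0 with the replicate block (limma adjusted p = 0.0534 for the cytosine in Slc2a1). With the replicate block in edgeR 0 windows were called in each comparison. Leaving out 1 animal, the counts of cytosines were 0 to 1 in “Attacker” vs “Parental” (1 without Parental 6 or Mother 4), “Attacker” vs “Father” (1 without Father 3 or Father 5) and “Parental” vs “Father” (1 without Father 2, Father 3 or Father 5), and 0 to 3 in “Father” vs “Mother” (0 without Father 4, Mother 2 or Mother 6, 2 without Mother 1, 3 without Father 2).

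For the pooled level, leaving out 1 animal gave differences of 0.0109 to 0.0520, 0.0136 to 0.0604, -0.0114 to 0.0202 and -0.0335 to -0.00196 points, in the order of the comparisons, with 0.0109 and 0.0136 without Attacker 6. In windows over 2% the signs of “Parental” vs “Father” (-0.0438) and “Father” vs “Mother” (0.00881) turned. For the share of windows over 10% these ranges were -0.0337 to 0.140, -0.0618 to 0.112, -0.0632 to 0.00702 and 0.0257 to 0.0960 points. “Parental” vs “Father” turned to 0.00281 for windows over 20% and “Father” vs “Mother” to -0.115 for windows over 5%. The causes of these turns were not tested, and none of these differences passed a test. In all, 592 of 642 recomputed values were classed as the same as the main value. For a count, this meant only a size close to the main count. For differences and relations it meant the same direction and the same call. Of the rest, 30 counts moved, 11 values changed sign, 8 lost a call and 1 gained a call. At the median number of calls a window at 0 allows up to 0.109% if calls are taken as independent, and more at fewer calls.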
